A study of Mus musculus with 36 samples.

Results

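The genes described here mark liver macrophages: 42 genes of Kupffer cells, of monocytes that enter the liver from the blood, and of macrophages of the scar type. They were chosen by symbol from the 21955 rows of each count table, and all 42 were present. Of the 42, 39 were among the 13436 genes that passed the filter on low counts, and Ly6c2, Ccl2 and Ms4a7 did not pass and were not tested. The genes were read in 6 sets: 6 resident Kupffer cell genes, 9 core macrophage genes, 10 recruited monocyte genes, 6 scar-type macrophage genes, 10 myeloid genes shared by monocytes and macrophages, and Cd207 on its own.

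Total RNA was sequenced from regenerating liver of C57BL/6JN mice, an inbred laboratory strain with no transgene or deletion named in the labels. Young mice were 4 months and old mice 18 months old, and the young mice served as the reference. Livers were taken before and at time points labelled 48, 72, 96, 120 and 240, for which the labels give neither a unit nor the way regeneration was induced. With 3 biological replicates in each of 12 groups, there were 36 libraries.

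Kupffer cells are macrophages that live in the liver sinusoids, where they clear bacteria, old red blood cells and debris. Most are seeded before birth and renew themselves in place, under signals from endothelial, stellate and liver cells. When they are lost, blood monocytes that carry Ccr2 enter the liver and can take on the Kupffer cell programme, with Clec4f acquired early and Timd4 late. In injured tissue, some recruited cells instead express Trem2, Gpnmb, Cd9 and Spp1, a programme known from scar-associated macrophages.

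Total counts per library ranged from 2328233 to 6034446, with a median of 4439170, and 3 counts corresponded to 0.49 to 1.29 CPM. CPM is the count per 1000000 counts of the library, with the total corrected by trimmed means (TMM). The 8 hepatocyte markers summed to 18400 to 30300 CPM, as a check of the tissue label. The spread between replicates, as a biological coefficient of variation, was 40.7% in the old livers at 48 and 19.4% to 27.2% in the other groups. Old 48 replicate 2 stood apart: it had the lowest value of all 36 libraries for 12 of the 42 genes and the highest for 5, so results at 48 are given with and without it. In each group 1 library held Y-linked transcripts and the other 2 did not, and the sex of the mice is not in the labels. Bulk RNA cannot tell fewer cells of a type from less RNA per cell, which holds for every value below.

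The promoters of the genes on which the results turn are shown so that their sequences can be read beside the expression values. They come from RefSeq on GRCm38.p6, which held 34 of the 42 genes. Each line gives the 250 bases before the transcription start, 5′ to 3′, with capitals for a match to any of 5 motifs searched on both strands: the PU.1 core GAGGAAGT, the MAF site TGCTGAC, the AP-1 site TGANTCA, the NF-kB core GGGANTTCC and the C/EBP palindrome TTGCNNAA.

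Cd207 (chr6:83677858-83678107, - strand): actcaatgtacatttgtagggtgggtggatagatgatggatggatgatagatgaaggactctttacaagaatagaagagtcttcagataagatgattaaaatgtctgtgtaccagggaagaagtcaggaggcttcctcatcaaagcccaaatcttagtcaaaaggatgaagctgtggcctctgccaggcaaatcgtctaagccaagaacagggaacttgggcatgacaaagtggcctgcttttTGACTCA
Cd163 (chr6:124304401-124304650, + strand): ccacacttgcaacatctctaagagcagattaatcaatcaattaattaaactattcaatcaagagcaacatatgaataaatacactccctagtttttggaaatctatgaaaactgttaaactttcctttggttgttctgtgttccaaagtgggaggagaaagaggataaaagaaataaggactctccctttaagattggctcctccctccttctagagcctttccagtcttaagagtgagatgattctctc
S100a9 (chr3:90695722-90695971, - strand): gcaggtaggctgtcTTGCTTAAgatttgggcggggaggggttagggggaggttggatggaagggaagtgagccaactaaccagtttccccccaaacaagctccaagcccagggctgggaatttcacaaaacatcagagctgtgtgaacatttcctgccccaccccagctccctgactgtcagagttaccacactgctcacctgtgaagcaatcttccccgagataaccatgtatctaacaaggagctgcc
Marco (chr1:120505025-120505274, - strand): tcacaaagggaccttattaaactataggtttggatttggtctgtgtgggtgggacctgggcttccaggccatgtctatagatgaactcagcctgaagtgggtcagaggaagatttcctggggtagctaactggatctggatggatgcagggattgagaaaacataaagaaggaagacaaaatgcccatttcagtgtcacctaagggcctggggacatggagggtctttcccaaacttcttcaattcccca
Gpnmb (chr6:49036268-49036517, + strand): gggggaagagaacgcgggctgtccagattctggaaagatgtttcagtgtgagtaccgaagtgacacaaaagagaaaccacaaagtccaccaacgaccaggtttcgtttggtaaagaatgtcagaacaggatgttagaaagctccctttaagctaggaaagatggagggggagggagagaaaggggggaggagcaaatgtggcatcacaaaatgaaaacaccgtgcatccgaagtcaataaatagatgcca
Spp1 (chr5:104434861-104435110, + strand): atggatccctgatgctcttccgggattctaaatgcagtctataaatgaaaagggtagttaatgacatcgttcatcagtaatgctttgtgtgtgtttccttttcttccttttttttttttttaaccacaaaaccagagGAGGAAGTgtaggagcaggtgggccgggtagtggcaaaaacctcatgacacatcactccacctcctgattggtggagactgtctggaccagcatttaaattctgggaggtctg

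The AP-1 letters end the Cd207 promoter. The table holds 41 promoters of the 34 genes, since some genes have more than 1 start, and 7 of the 41 held the AP-1 letters (one each of Folr2, Cd68, Itgax, Trem2, Mmp12, Ms4a7 and Cd207) against 6.75% of 32851 promoters of the same length. The PU.1 core, which a myeloid master factor binds, was present in 6 of the 41 (of C1qc, Ly6c2, S100a8, Spp1 and Mmp12) against 2.44% of all promoters. The C/EBP palindrome was present in 6 (of Cd68, S100a9, Spp1, Mmp12 and Fcgr3) against 9.56%, the MAF site in 3 (of Timd4 and Fcgr3) against 3.81%, and the NF-kB core in 0 against 1.43%. In Spp1 the C/EBP letters lie before a second start, at chr5:104435942-104436191, which is not shown. The promoters of Fcgr3 overlap each other, as do those of Ly6c2, so the same letters were counted more than once. By gene, the PU.1 core was present in 5 of the 34, the MAF site in 2 and the C/EBP palindrome in 5. Such matches describe letters only.

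Between the ages, 5 of the macrophage genes differed beyond the spread between replicates. Averaged over the 6 time points, edgeR's quasi-likelihood test with Benjamini-Hochberg adjustment over all 13436 genes called 5 of the 39 genes, at an adjusted p under 0.05, against 5.98% of all genes (3.39% with the old livers higher, 2.59% with them lower). Cd207, S100a9, Cx3cr1 and Cd9 were higher in old livers and Cd163 was lower. Over the 39 genes, 30 had a log2 fold change above 0, with a median of 0.16 against 0.00 over all genes. The median was 0.82 for the 8 recruited monocyte genes tested, all above 0, and -0.07 for the 6 resident genes, of which 0 were called and 1 passed an unadjusted p under 0.05. Of the 8 recruited genes, Chil3 passed the filter on low counts through old libraries alone, and Ly6c2 and Ccl2 of that set were not tested. Clec4f, Timd4, Vsig4, Cd5l, Marco and Folr2 were also read by Y-linked transcripts, on the log2(CPM + 1) scale. Their age differences were 0.16, -0.42, 0.07, 0.67, 0.35 and 0.10 with them and -0.38, -0.70, -0.06, -0.33, -0.46 and -0.33 without them. Ccr2 and Lyz2 of the recruited set had 0.84 and 0.65 with and -0.11 and -0.03 without them. The other recruited genes tested were above 0 in both parts.

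Cd207 encodes langerin, a C-type lectin that binds sugars on microbes and is best known from Langerhans cells of the skin. Before regeneration it stood at 33.8, 19.7 and 21 CPM in old replicates 1 to 3 and at 3.54, 4.73 and 3.15 CPM in young replicates 1 to 3. The groups did not overlap, with means of 24.8 ± 7.81 and 3.8 ± 0.822 CPM (SD, n = 3 each). The log2 fold change was 2.70 ± 0.47 (SE; edgeR adjusted p = 0.0082), the only call among the 39 genes at this time point, against 0.0595% of all genes (0.0372% with the old livers higher, 0.0223% with them lower). The adjusted p was 0.109, 0.0536 and 0.1 without young replicate 1, 2 or 3 before.

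At 48, Cd207 measured 7.11, 9.12 and 16.6 CPM in old and 2.29, 6.21 and 2.71 CPM in young livers (log2 fold change 1.59 ± 0.48, edgeR adjusted p = 0.0273, and 1.70 with an adjusted p of 0.0524 without old 48 replicate 2). At 72 the old livers held 9.85, 10.3 and 12.3 CPM and the young 4.78, 2.92 and 2.8 CPM. At 96 they held 16.7 and 17.4 CPM but 3.01 CPM in old replicate 1, the library with the smallest total, against 4.02, 2.66 and 3.32 CPM in young. At 120 the old values were 12.6, 10.9 and 4.09 CPM and the young 3.9, 3.52 and 4.85 CPM. At 240 they were 17.2, 18 and 14.9 CPM against 1.41, 5.69 and 4.82 CPM.

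All old libraries thus lay above all young ones at 4 of the 6 time points, and 1 old library at 96 and 1 at 120 lay among the young. Both of these, old 96 replicate 1 and old 120 replicate 3, held Y-linked transcripts, and the part of that split was not tested. The averaged log2 fold change was 1.83 ± 0.20 (edgeR adjusted p = 6.69e-07), with the mean higher in old livers at 6 of 6 time points. On the log2(CPM + 1) scale the age difference was 1.50 in the libraries with Y-linked transcripts and 1.59 in the others, and old was higher at 6 of 6 time points in both. Within old livers, Cd207 fell by 1.18 ± 0.42 on the log2 scale from before to 48 (edgeR adjusted p = 0.0401), a call lost without old 48 replicate 2. Over the time course of young livers its adjusted p was 0.998.

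Cd207 lies at chr6:83671215-83677857 on the minus strand of GRCm38, next to Clec4f at chr6:83644542-83656187, also on the minus strand. Clec4f encodes a lectin used as the defining marker of mouse Kupffer cells. Its young libraries ranged from 103 to 333 CPM with a median of 197, and its old libraries from 34 to 349 CPM with a median of 181. The averaged log2 fold change of Clec4f was -0.13 ± 0.17 (edgeR adjusted p = 0.727), with 3 time points higher and 3 lower in old. No exon of another annotated gene overlapped either gene.

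**Figure D1:**
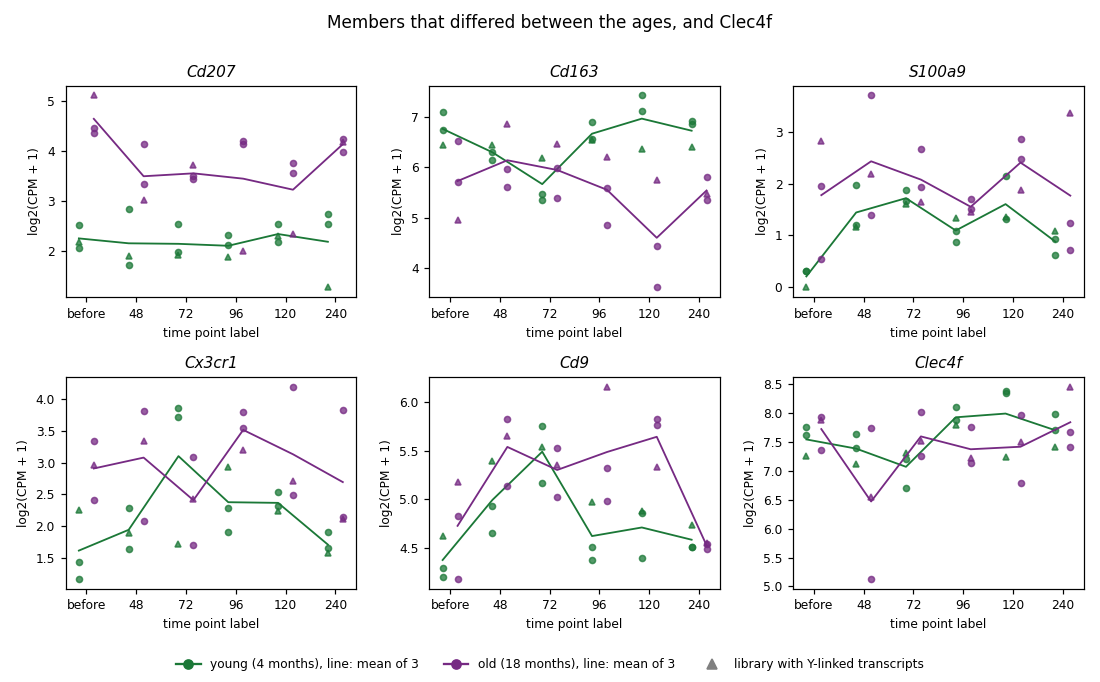
Values of Cd207, Cd163, S100a9, Cx3cr1, Cd9 and Clec4f as log2(CPM + 1) in each of the 36 libraries by time point label; lines join the means of 3 replicates, and triangles are the libraries with Y-linked transcripts. Cd207 lies higher in old than in young livers at all but 1 library at 96 and 1 at 120, while Clec4f, the neighbouring gene, overlaps between the ages.

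Cd163, the scavenger receptor for haemoglobin bound to haptoglobin, was lower in old livers. Over 18 libraries of each age it ranged from 39.6 to 170 CPM with a median of 88.8 in young and from 11.3 to 114 CPM with a median of 49.3 in old. The averaged log2 fold change was -0.85 ± 0.18 (edgeR adjusted p = 0.00462), with old lower at 5 of 6 time points. The lowest values came at 120, with 11.3, 20.7 and 52.6 CPM in old replicates 1 to 3 against 80.5, 170 and 137 CPM in young. Those groups did not overlap, and the log2 fold change of -2.16 ± 0.46 missed the threshold with an adjusted p of 0.0665. All old libraries also lay below all young ones at 96 and 240. The age difference on the log2(CPM + 1) scale was -0.44 with Y-linked transcripts and -1.17 without them.

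S100a9 encodes a subunit of calprotectin, an antimicrobial protein of neutrophils and monocytes. It ranged from 0 to 3.43 CPM with a median of 1.26 in young libraries and from 0.456 to 12 CPM with a median of 2.73 in old ones. The averaged log2 fold change was 1.70 ± 0.37 (edgeR adjusted p = 0.00374), with the mean higher in old at 6 of 6 time points, and the call was lost (adjusted p = 0.087) without the libraries that held Y-linked transcripts. On the log2(CPM + 1) scale the age difference was 1.13 in the libraries with Y-linked transcripts and 0.70 in the others. The ages overlapped at 4 of the 6 time points, and the highest value, 12 CPM, came from old 48 replicate 2. S100a8, its partner subunit, had an averaged log2 fold change of 1.18 ± 0.38 that did not pass (edgeR adjusted p = 0.0607).

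Neutrophil markers stand beside these values. The 10 neutrophil genes in the tables summed to 3.23 to 15.6 CPM (median 7.7) in young and 5.17 to 28.2 CPM (median 11.4) in old libraries. Of the 10, Retnlg, Mmp8, Camp, Ltf, Ngp, Elane and Mpo had a median count of 3 or less. In the age average, 0 of the 3 that were tested passed with edgeR (1 had an unadjusted p under 0.05), where 5.98% of all genes passed. The part of neutrophils in the S100a9 difference was not tested.

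Cx3cr1, the fractalkine receptor of patrolling monocytes and tissue macrophages, ranged from 1.24 to 13.6 CPM with a median of 3.23 in young and from 2.26 to 17.3 CPM with a median of 7.15 in old libraries. Its averaged log2 fold change was 0.99 ± 0.26 (edgeR adjusted p = 0.0183), or an adjusted p of 0.053 without the libraries with Y-linked transcripts. Old was higher at 5 of 6 time points, the exception being 72, and the age difference on the log2(CPM + 1) scale was 0.69 with Y-linked transcripts and 0.81 without them. Cd9, a tetraspanin of scar-type macrophages that bile duct cells also express, ranged from 17.4 to 53.2 CPM with a median of 24.8 in young and from 17.1 to 70.4 CPM with a median of 37 in old libraries. Its averaged log2 fold change was 0.43 ± 0.11 (edgeR adjusted p = 0.0154), and its difference on the log2(CPM + 1) scale was 0.35 with and 0.44 without Y-linked transcripts. Of the 6 time points, Cd9 was higher in old at 4 and lower at 2, with log2 fold changes from -0.20 to 0.95. The groups of Cd9 did not overlap at 96, with 70.4, 38.9 and 30.7 CPM in old against 19.8, 30.4 and 21.8 CPM in young, or at 120, with 56, 53.5 and 39.3 CPM against 28.4, 28 and 20 CPM.

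Timd4, the phosphatidylserine receptor that marks long-lived Kupffer cells, ranged from 9.18 to 37.1 CPM with a median of 14.9 in young and from 3.04 to 21.9 CPM with a median of 12.6 in old libraries. Its averaged log2 fold change of -0.56 ± 0.19 did not pass (edgeR adjusted p = 0.0838), though old was lower at 5 of 6 time points. The other rule-named resident genes, Vsig4 (a complement receptor), Cd5l (a secreted lipid regulator) and Marco (a scavenger receptor), had averaged values of -0.01 ± 0.15, 0.12 ± 0.20 and 0.21 ± 0.36, with 0 calls (edgeR). Ccr2, the receptor by which monocytes leave the bone marrow, had 0.24 ± 0.21, and Itgam, the integrin CD11b, had 0.65 ± 0.30. Gpnmb and Trem2, a glycoprotein and a lipid receptor of scar-type macrophages, had 0.64 ± 0.95 and 0.13 ± 0.30, and these 4 did not pass either. Without old 240 replicate 3, 8 of the 39 genes were called in the average. Ly6c2, the surface protein of inflammatory monocytes, ranged from 0 to 1.99 CPM and had 0 counts in 5 libraries, so no fold is given, and its counts may be split with the near-identical Ly6c1.

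Before regeneration, most of the macrophage genes lay above the young level in old livers without passing the test. Of the 39 genes, 36 had a log2 fold change above 0, with a median of 0.76 against 0.01 over all genes, and in 19 every old library lay above every young one. By comparison, 8.04% of all genes were higher in old without overlap, and in 0 of the 39 genes did every old library lie below every young one. The 19 genes held Vsig4 and Folr2 of the resident set, C1qa, C1qb, C1qc, Csf1r and Cd68 of the core set, and Cx3cr1, Itgam, Itgax, Lyz2 and S100a9 of the recruited set. Among scar-type genes they held Lgals3 and Mmp12, and among the shared genes Fcer1g, Laptm5, Ptprc and Cd52, besides Cd207.

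Lyz2, the lysozyme of monocytes and macrophages, measured 120, 102 and 114 CPM in old and 37.9, 43.8 and 55.9 CPM in young livers before, which gave 1.29 ± 0.38 on the log2 scale (edgeR adjusted p = 0.322). Ptprc, the pan-leukocyte protein CD45, measured 39.7, 40.4 and 37.2 CPM against 20.2, 16.9 and 25.4 CPM. The groups of both were apart, and neither passed the test. Markers of other leukocytes are given beside them. The 12 T, B and NK cell genes summed to 23.7, 26.8 and 13 CPM in old and 13.7, 11.4 and 17.9 CPM in young livers, and the neutrophil genes to 27.5, 10.9 and 8.44 CPM against 5.62, 3.23 and 6.3 CPM. The first overlapped between the ages and the second did not. Their part in the differences was not tested.

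**Figure D2:**
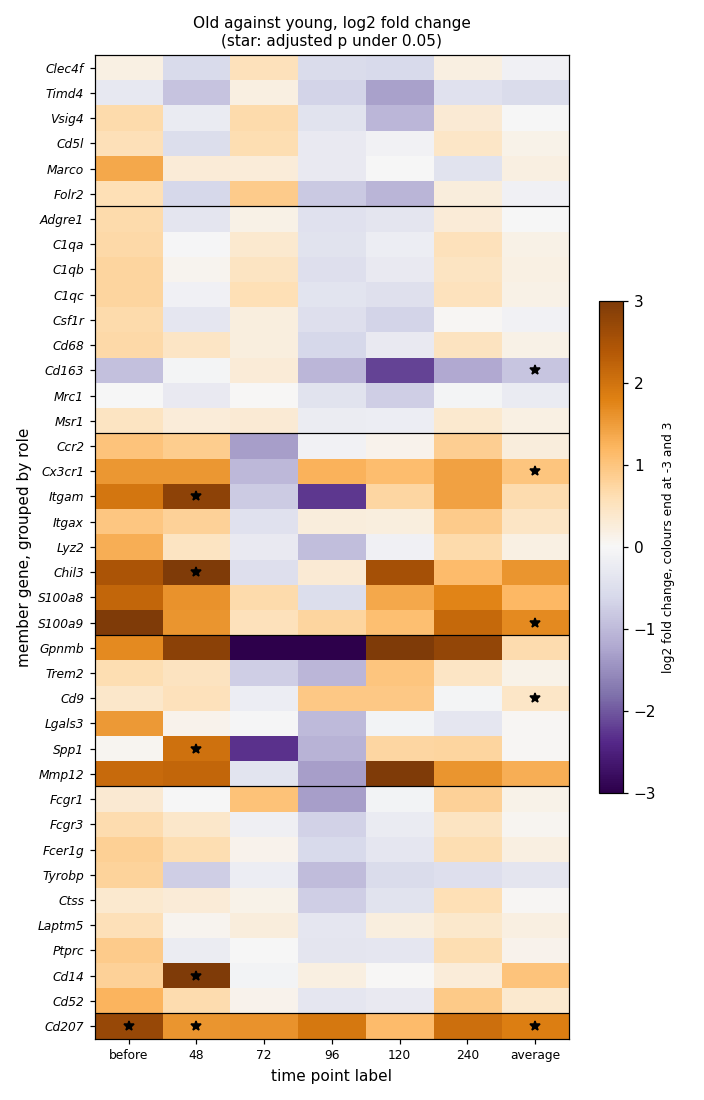
Log2 fold change of old against young for the 39 genes tested (rows, grouped by set) at each time point and averaged (columns), with colours that end at -3 and 3 and a star for an adjusted p under 0.05. The column before is mostly on the side of the old livers, whereas 96 is mostly on the side of the young.

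At 96 the order was the other way. In 16 of the 39 genes every old library lay below every young one, against 10.7% of all genes, and 3 (Cx3cr1, S100a9 and Cd9) lay above, against 9.94%. The 16 held Clec4f, Timd4, Vsig4 and Folr2 of the resident set. Clec4f measured 149, 140 and 215 CPM in old and 235, 222 and 273 CPM in young livers (log2 fold change -0.54 ± 0.41, edgeR adjusted p = 0.629). At 96, where 0.171% of all genes were called (0.0372% lower), 0 of the 39 genes passed with edgeR, 12 had an unadjusted p under 0.05, and DESeq2 called 2. Without old 48 replicate 2, edgeR called 2 of them at 96. Without old 96 replicate 3 or old 120 replicate 3, it called 1. The calls at 72, 120 and 240 were also 0 of 39 with edgeR, where 0%, 0% and 0.0149% of all genes were called, and DESeq2 called 1 gene at each. At an unadjusted p under 0.05 there were 6, 11 and 6 genes at these time points, and edgeR called 1 at 72 without young 72 replicate 3 and 1 at 120 without old 120 replicate 3.

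At 72, Folr2 and Cd207 lay wholly above the young level, against 3.93% of all genes, and Gpnmb lay wholly below it, against 4.51%. Gpnmb had 2 counts in each old library and in young replicate 3 at 72, so those were apart by their library totals only. At 120, Itgam, Gpnmb, Cd9 and Mmp12, a macrophage elastase, lay above (7.81% of all genes), and Cd163 and Mrc1 lay below (8.63%). At 240, Cx3cr1, Itgam, Lyz2, Gpnmb, Spp1, Mmp12, Ptprc and Cd207 lay above (5.34%), and Cd163 lay below (5.07%). Mmp12 had 1 count in old replicate 2 and in young replicates 1 and 2 at 240, so those too were apart by their totals only.

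At 48 all age calls among these genes were lost when a single old library was left out. The test called 5 of the 39 genes, all higher in old livers, where 4.42% of all genes were called higher, 6.78% lower and 11.2% in either direction. Cd14, the co-receptor for bacterial lipopolysaccharide, measured 13.8, 364 and 7.77 CPM in old and 3.76, 5.95 and 2.96 CPM in young livers (log2 fold change 4.93 ± 0.99, edgeR adjusted p = 0.00189). Itgam measured 8, 61.8 and 6.14 CPM against 4.25, 4.14 and 2.22 CPM (2.82 ± 0.69, edgeR adjusted p = 0.00735). In both, the groups did not overlap, and replicate 2 lay far above the other old livers. In all, 8 of the 39 genes lay wholly above the young level at 48, against 8.8% of all genes, and 1, Timd4, lay wholly below it, against 12.8%.

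Spp1 encodes osteopontin, a matrix protein of scar-type macrophages that bile duct cells also make. It measured 43.6, 198 and 45.6 CPM in old and 26.3, 27.2 and 16.5 CPM in young livers (2.03 ± 0.63, edgeR adjusted p = 0.0366). Chil3, the chitinase-like protein of monocytes, which may share reads with Chil4, measured 1.78, 4.25 and 1.84 CPM against 0.327, 0 and 0.246 CPM (edgeR adjusted p = 0.0324). That is 38 against 3 counts, a ratio of 12.4 with a 95% counting interval of 3.94 to 62.9. Cd207 was the fifth call.

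Without old 48 replicate 2, 0 of the 5 calls remained, and the log2 fold changes were 1.34 for Cd14, 0.96 for Itgam, 0.92 for Spp1 and 2.93 for Chil3 (edgeR adjusted p from 0.177 to 0.497). A fit of only the 6 libraries at 48 also gave 0 calls, and leaving out young 48 replicate 1, 2 or 3 or old 48 replicate 3 gave 2, 3, 2 and 8 calls. In old 48 replicate 2, 5 of the 6 resident genes and 6 of the 9 core genes had their lowest value of all 36 libraries. Cd5l, for instance, stood at 20.7 CPM, against 195 and 305 CPM in the other old livers at 48. Its 6 proliferation genes summed to 46 CPM, against 294 and 705 CPM in the other old livers and 1820 to 3480 CPM in the young. Its neutrophil sum was 28.2 CPM, the highest of the 36, and its T, B and NK cell sum was 1.62 CPM, close to the 1.56 CPM of old 48 replicate 1. The part of these in the results at 48 was not tested.

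**Figure D3:**
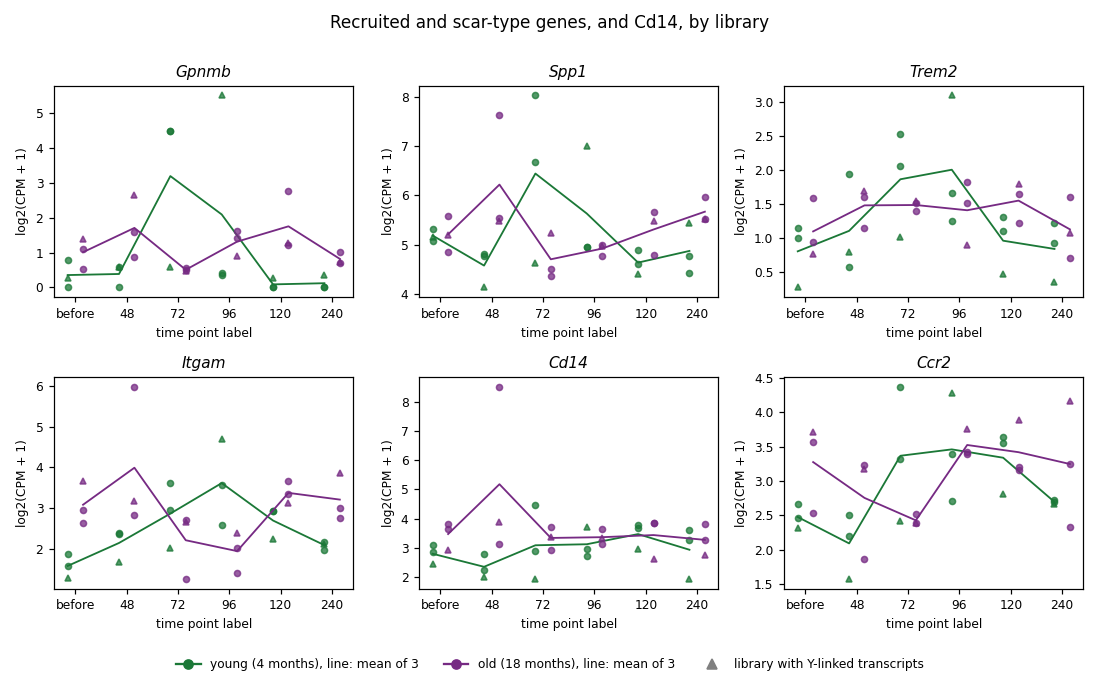
Values of Gpnmb, Spp1, Trem2, Itgam, Cd14 and Ccr2 as log2(CPM + 1) in each library by time point label; lines join the means of 3 replicates, and triangles are the libraries with Y-linked transcripts. Old 48 replicate 2 is the highest point for Itgam and Cd14, and for Gpnmb 3 young libraries (72 replicates 1 and 2, 96 replicate 2) lie above all others.

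In young livers, the genes called higher than before at 48 or 72 were Marco, the recruited genes S100a9 and Cx3cr1 and the scar-type genes Gpnmb, Spp1, Lgals3 and Cd9, and Mrc1 was called lower. Each later time point was compared with the same 3 livers before, so the 5 comparisons of an age share their controls. At 48, 3 of the 39 genes were called, where 21.9% of all genes were, 12.2% higher and 9.79% lower. At 72, 8 were called, 7 of them higher, where 9.21% of all genes were called higher, 8.21% lower and 17.4% in either direction. At 96, 120 and 240, 0 passed with edgeR, where 1.4% (0.662% higher and 0.737% lower), 0.581% and 0.246% of all genes were called. At an unadjusted p under 0.05 there were 15, 13 and 1 genes at these time points, and DESeq2 called 3, 1 and 0. At 48, without young before replicate 1, 2 or 3 or young 48 replicate 1, 1 gene was called, and 0 without young 48 replicate 3. At 96, 1 gene was called without young 72 replicate 3, young 96 replicate 1 or old 48 replicate 1 or 3, and 2 without young 96 replicate 3 or old 48 replicate 2.

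Marco, at chr1:120474538-120505024, measured 1.87, 1.49 and 3.63 CPM in young livers before. It measured 25, 13.2 and 10.6 CPM at 48 and 21.4, 18.7 and 11.2 CPM at 72, apart from the values before. The log2 fold changes were 2.81 ± 1.01 (edgeR adjusted p = 0.0459) and 2.87 ± 1.01 (edgeR adjusted p = 0.0495). The young livers stayed above those before at 96, 120 and 240, where means of 17.8 ± 4.89, 24.3 ± 11.1 and 14.3 ± 1.72 CPM (SD, n = 3) did not pass. Both calls lay close to the threshold and were lost on leaving out many of the libraries, 20 of the 36 at 48 and 25 of the 36 at 72. In old livers Marco spread from 0.704 to 15.5 CPM before and from 4.3 to 36 CPM at 48 and did not pass at any time point. The other resident genes had 0 calls with edgeR in the comparisons of young livers with those before: Cd5l, for instance, had 0.29 ± 0.49 on the log2 scale at 48 and 1.11 ± 0.50 at 120.

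Mrc1, the mannose receptor, which Kupffer cells share with sinusoidal endothelium, was at 96.3, 95.5 and 124 CPM in young livers before. It stood at 62.6, 73.5 and 41.4 CPM at 48 and at 52.4, 57.6 and 42 CPM at 72, with no overlap. It fell by 0.83 ± 0.22 (edgeR adjusted p = 0.00566) and by 1.05 ± 0.22 (edgeR adjusted p = 0.00154) on the log2 scale, and at 240 it was at 83.9, 89.4 and 83.2 CPM. In old livers it was at 83.8, 127 and 103 CPM before, and it fell by 1.09 ± 0.22, 1.03 ± 0.22, 0.79 ± 0.22 and 0.89 ± 0.22 at 48, 72, 96 and 120 (edgeR adjusted p = 0.000712, 0.00217, 0.026 and 0.0189). At 120 the old livers held 48.4, 61.7 and 58.7 CPM and the young 75.8, 101 and 104 CPM, without overlap, but the age comparison did not pass (edgeR adjusted p = 0.23). Of the 8 endothelial genes of the list, 4 were called lower in young livers at 72, against 8.21% of all genes. In old livers at 48, 3 of the 8 were called lower, against 12% of all genes, with Kdr, Oit3 and Fcgr2b among both. The sum of the 8 in the old livers was 397, 425 and 307 CPM at 48 and 406, 502 and 582 CPM before, which overlapped. In old livers at 72, 96 and 120 the sum lay wholly below that before, at up to 382, 375 and 353 CPM. In young livers it was 338, 389 and 276 CPM at 48 and 326, 369 and 309 CPM at 72. Both lay wholly below the 469, 520 and 489 CPM of young livers before. The part of the endothelial genes in the fall of Mrc1 was not tested.

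**Figure D4:**
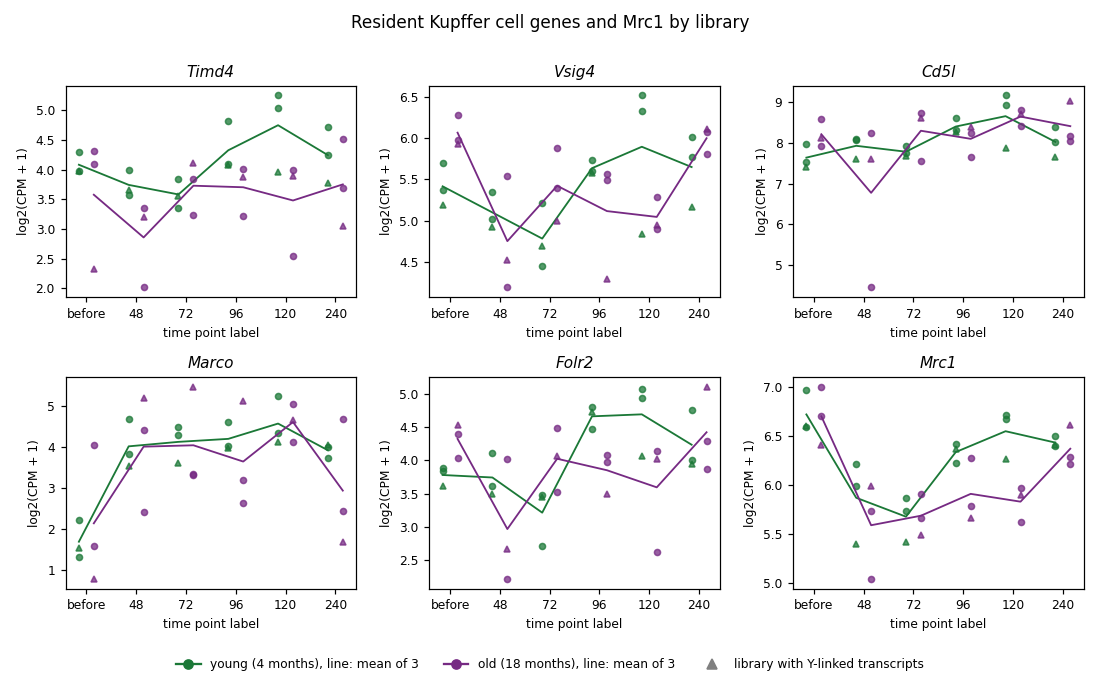
Values of Timd4, Vsig4, Cd5l, Marco, Folr2 and Mrc1 as log2(CPM + 1) in each library by time point label; lines join the means of 3 replicates, and triangles are the libraries with Y-linked transcripts. Marco lies above its level before at every later time point in young livers, Mrc1 lies below it at 48 and 72 in both ages, and old 48 replicate 2 is the lowest point for Timd4, Vsig4, Cd5l, Folr2 and Mrc1.

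The scar-type genes that were called at 72 in young livers were Gpnmb, Spp1, Lgals3 and Cd9. Gpnmb, at chr6:49036546-49070929, measured 21.6, 21.6 and 0.509 CPM in young replicates 1 to 3 at 72 and 0.208, 0 and 0.726 CPM before. That is 204 against 4 counts, a ratio of 49.8 with a 95% counting interval of 19.1 to 184 (edgeR adjusted p = 0.0114). Replicates 1 and 2 were high and replicate 3 lay among the livers before. At 96 a single young library, replicate 2, held 44.7 CPM and the other two 0.335 and 0.276 CPM, and the comparison did not pass (edgeR adjusted p = 0.0537).

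Spp1 measured 101, 261 and 23.7 CPM at 72 against 34.7, 32.8 and 38.7 CPM before (log2 fold change 1.86 ± 0.62, edgeR adjusted p = 0.0403), again with replicates 1 and 2 high and replicate 3 low. Lgals3, the lectin galectin-3, measured 2.49, 2.92 and 2.04 CPM against 0.832, 0.995 and 0.484 CPM (1.65 ± 0.53, edgeR adjusted p = 0.0269). Cd9 measured 35, 53.2 and 45.6 CPM against 23.7, 17.4 and 18.6 CPM (1.16 ± 0.27, edgeR adjusted p = 0.00421). All 3 young livers lay above those before for Lgals3 and Cd9. Trem2 measured 4.78, 3.16 and 1.02 CPM against 0.208, 0.995 and 1.21 CPM and did not pass (1.93 ± 0.72, edgeR adjusted p = 0.0583).

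The same 3 young libraries, 72 replicates 1 and 2 and 96 replicate 2, held the 3 highest values of the 36 for both Gpnmb and Trem2. For Spp1 they ranked 4, 1 and 3. Matrix genes were high in these libraries as well, and bile duct genes in the pair at 72. The 8 stellate cell and fibroblast genes summed to 841, 898 and 856 CPM there and to 769 CPM in young 96 replicate 1, against 230 to 555 CPM in the other libraries. The 8 cholangiocyte genes summed to 46.7, 56.6 and 28.7 CPM, against 9.9 to 40.4 CPM in the others. Spp1 and Cd9 are cholangiocyte genes too, and the part of those cells was not tested. At 72, young replicates 1 and 2 were the libraries without Y-linked transcripts. Against the livers before, the difference on the log2(CPM + 1) scale was 4.11 for Gpnmb and 2.16 for Spp1 without Y-linked transcripts, and 0.32 and -0.53 with them, so at 72 the 2 replicates and that split cannot be told apart. At 96 the high library, young replicate 2, was the one with Y-linked transcripts, and the other two were low for Gpnmb. Where 8 genes were called with all libraries, 3 were called without young 72 replicate 1 or 2 or young before replicate 1 or 3, and 4 without young before replicate 2.

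Among recruited genes, Cx3cr1 at 72 in young livers measured 12.2, 13.6 and 2.29 CPM against 3.74, 1.24 and 1.69 CPM before (2.04 ± 0.65, edgeR adjusted p = 0.0284), with the same replicates 1 and 2 high and a difference of 2.50 without and -0.53 with Y-linked transcripts on the log2(CPM + 1) scale. S100a9 rose from 2 counts before to 28 at 48 and 31 at 72, ratios of 12.9 (95% counting interval 3.26 to 112; edgeR adjusted p = 0.0418) and 15.1 (3.85 to 130; edgeR adjusted p = 0.0309). Every young library at these time points was above those before, from 1.23 to 2.94 CPM against 0 to 0.249 CPM. Ccr2 and Itgam did not pass at 72 (edgeR adjusted p = 0.0884 and 0.106). At 96 in young livers, 21 of the 39 genes lay wholly above the level before, against 13.9% of all genes, with Clec4f, Cd5l, Ccr2, Itgam and Trem2 among them.

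In old livers, 10 of the 39 genes were called lower and 2, Cd14 and Cd9, higher at 48 than before, where 12% of all genes were called lower, 12.1% higher and 24.1% in either direction. Lyz2 measured 39.8, 15.8 and 50.3 CPM at 48 against 120, 102 and 114 CPM before (log2 fold change -1.67 ± 0.38, edgeR adjusted p = 0.00259). Csf1r, the receptor on which macrophages depend for survival, measured 37.1, 26.3 and 79.2 CPM against 116, 132 and 99.2 CPM (-1.28 ± 0.29, edgeR adjusted p = 0.00222). Adgre1, which encodes the macrophage antigen F4/80, measured 6.67, 2.43 and 8.18 CPM against 15, 19.9 and 17.6 CPM (-1.60 ± 0.39, edgeR adjusted p = 0.0036). In these 3 genes no library at 48 reached a level before, and old 48 replicate 2 was the lowest of them. Csf1r shares exon sequence on the opposite strand with Hmgxb3, and Lyz2 is close to Lyz1, so their counts are uncertain.

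Ptprc fell by 1.25 ± 0.31 (edgeR adjusted p = 0.00424), and Mrc1 as given above. These 5 genes (Lyz2, Csf1r, Adgre1, Ptprc and Mrc1) were called without old 48 replicate 2 too, and no other member was, while 16.8% of the 13682 genes tested in that fit were called. The calls lost with that library were Vsig4 (-1.24 ± 0.36, 0.0141), Folr2, a folate receptor (-1.24 ± 0.43, 0.0351), Cd207, C1qc and C1qa, which are complement chains (-0.95 ± 0.31, 0.0262, and -0.91 ± 0.33, 0.0474), Cd9 (0.81 ± 0.27, 0.0271) and Cd14 (3.61 ± 0.90, 0.00528), given as log2 fold change and edgeR adjusted p with all libraries. A fit of only the 6 libraries called 0 of the 39 genes and 221 of all genes, against 3243. Without old before replicate 2 or old 48 replicate 1, 6 and 7 of the 39 genes were called. Clec4f did not pass (-0.92 ± 0.41, edgeR adjusted p = 0.104), with 92.5, 34 and 212 CPM at 48 and 234, 244 and 163 CPM before.

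Fewer genes passed at the later time points in old livers. At 72, where 12.4% of all genes were called, 3 members were: Mrc1, Lyz2 (33.2, 28.5 and 61.3 CPM, -1.45 ± 0.38, edgeR adjusted p = 0.0122) and Ptprc (27.5, 18.5 and 16.7 CPM, -0.90 ± 0.30, edgeR adjusted p = 0.0476). At 96, where 6.82% of all genes were called, they were Mrc1 and Lyz2 (43.4, 46.7 and 36.8 CPM, -1.40 ± 0.38, edgeR adjusted p = 0.0251). The call of Ptprc lay close to the threshold and was lost in 32 of 47 alternatives, 26 of them fits without a single library. Without old 72 replicate 2, 1 gene was called at 72, and without old before replicate 2 or 3 or old 96 replicate 1 or 2, 0 were called at 96. At 120, with 3.87% of all genes called, Mrc1 was the single call. Leaving out single libraries gave 0 to 3 calls at 120, with 0 without old before replicate 2 or 3 or old 120 replicate 1. At 240, 0 of the 39 genes were called with edgeR or DESeq2 (0.156% of all genes were with edgeR), 1 had an unadjusted p under 0.05, and Lyz2 was at 121, 93.6 and 102 CPM. At that time point 3 of the 39, Lgals3, Mmp12 and Cd207, lay wholly below the level before, against 7.1% of all genes, a share near that of the members. Wholly below the level before lay 12 of the 39 at 48, 11 at 72, 17 at 96 and 9 at 120. The shares over all genes were 16.6%, 15.8%, 13.8% and 10.9%. Wholly above it lay 0 at 48, 72 and 96 and 2 (Marco and Cd9) at 120, against 14.9%, 15.4%, 13% and 10.7% of all genes.

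Whether the course over time differed between ages was tested with a single interaction test per gene. It called 3 of the 39 genes, Itgam (edgeR adjusted p = 0.0221), Gpnmb (0.0344) and Spp1 (0.0398), where 2.76% of all genes were called. Itgam measured 11.7, 6.7 and 5.25 CPM in old livers before and 1.46, 1.99 and 2.66 CPM in young ones. At 96 the order was turned, with 4.29, 1.65 and 3.09 CPM in old against 10.9, 24.9 and 4.98 CPM in young livers, and no overlap at either time point. At 72 Itgam measured 5.54, 1.4 and 5.36 CPM in old and 11.3, 6.81 and 3.05 CPM in young livers, which overlapped. At 120 and 240 the old livers (11.6, 9.11 and 7.78 CPM, then 13.6, 5.79 and 7.01 CPM) again lay above the young (3.7, 6.67 and 6.57 CPM, then 3.38, 2.96 and 3.48 CPM).

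Gpnmb in old livers was at 1.64, 0.447 and 1.14 CPM before, 5.33, 2.03 and 0.818 CPM at 48, 0.41, 0.468 and 0.383 CPM at 72 and 0.859, 2.07 and 1.69 CPM at 96. It reached 1.33, 5.77 and 1.43 CPM at 120 and 0.66, 1.02 and 0.637 CPM at 240, while the young livers had 1 count in all at each of these time points. The high values of 21.6 and 44.7 CPM thus occurred in 3 young libraries and in no old one. Spp1 in old livers was at 19.5, 21.8 and 36.6 CPM at 72 and at 30.5, 31 and 26.4 CPM at 96, when the young had 101, 261 and 23.7 CPM and 29.8, 127 and 29.9 CPM. The ages overlapped for Spp1 at both, because not every young library was high. For no member did the age difference in the change from before pass with edgeR at any single time point, where 1.38% of all genes passed at 48 and 0% to 0.0149% at the others. Unadjusted p-values under 0.05 were found for 4, 9, 22, 15 and 1 of the 39 genes from 48 to 240, and DESeq2 called 1, 0, 2, 0 and 0. The calls of Itgam, Gpnmb and Spp1 were lost on leaving out 4, 17 and 25 of the 36 libraries in turn. Without young 48 replicate 1 or 3 or old 96 replicate 2, 0 genes were called, and without old 48 replicate 3, 7 were. That last library also gave 6 calls for the age difference in change at 48 when it was left out.

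A test of any change over the 6 time points was made within each age. In young livers it called 13 of the 39 genes, where 21.4% of all genes were called, and in old livers 9, where 20.5% were. Csf1r, Mrc1, Itgam, Lyz2 and Cd9 were called in both. Folr2, Ccr2, Gpnmb, Trem2, Lgals3, Spp1, Mmp12 and Fcer1g were called in young livers, and Vsig4, Adgre1, Ptprc and Cd14 in old ones, and these differences between the ages were tested only by the interaction above. Without young 48 replicate 3, 6 genes were called in young livers, and 8 without young 72 replicate 2 or 96 replicate 2. Without old 48 replicate 2 or 3, 5 and 15 were called in old livers.

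Across all comparisons, 25 of the 39 genes were called with edgeR at least once, against 48.1% of all genes, and 14 were not: Clec4f, Timd4 and Cd5l of the resident set, C1qb, Cd68 and Msr1 of the core set, Itgax and S100a8 of the recruited set, and Fcgr1, Fcgr3, Tyrobp, Ctss, Laptm5 and Cd52 of the shared set. Msr1, a scavenger receptor, ranged from 30.8 to 63.7 CPM in young and from 34.7 to 73.9 CPM in old libraries. Laptm5, a lysosomal protein of leukocytes, ranged from 24.6 to 67.4 CPM and from 25.5 to 91.1 CPM. Ccl2, the monocyte chemoattractant, and Ms4a7 were not tested and stayed at or under 3.16 and 1.36 CPM.

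Resident and recruited levels were also set against each other in each library. The difference between the mean log2(CPM + 1) of Clec4f, Timd4, Vsig4, Cd5l and Marco and that of Ly6c2, Ccr2, Itgam, S100a8, Gpnmb and Trem2 is given as a description, with no test. From before to 240, the young livers had values of 4.17 ± 0.18, 4.39 ± 0.10, 3.23 ± 0.71, 3.78 ± 0.99, 4.85 ± 0.38 and 4.69 ± 0.26 (SD, n = 3 each). The old livers had 3.74 ± 0.88, 2.77 ± 1.13, 4.26 ± 0.14, 3.94 ± 0.31, 3.55 ± 0.51 and 4.00 ± 0.86 in the same order. Its lowest group mean came at 72 in young and at 48 in old livers, and old 48 replicate 2, at 1.49, was the lowest library there. Old 48 replicates 1 and 3 had 3.23 and 3.60. Young replicates 1 to 3 at 72 had 2.72, 2.94 and 4.04. With all resident and all recruited and scar-type genes the values moved by more than 1 SD in 9 of the 12 groups, and with a pseudocount of 0.25 in 6, and the lowest means stayed at 72 in young (2.47 and 3.62) and at 48 in old livers (2.03 and 3.16).

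**Figure D5:**
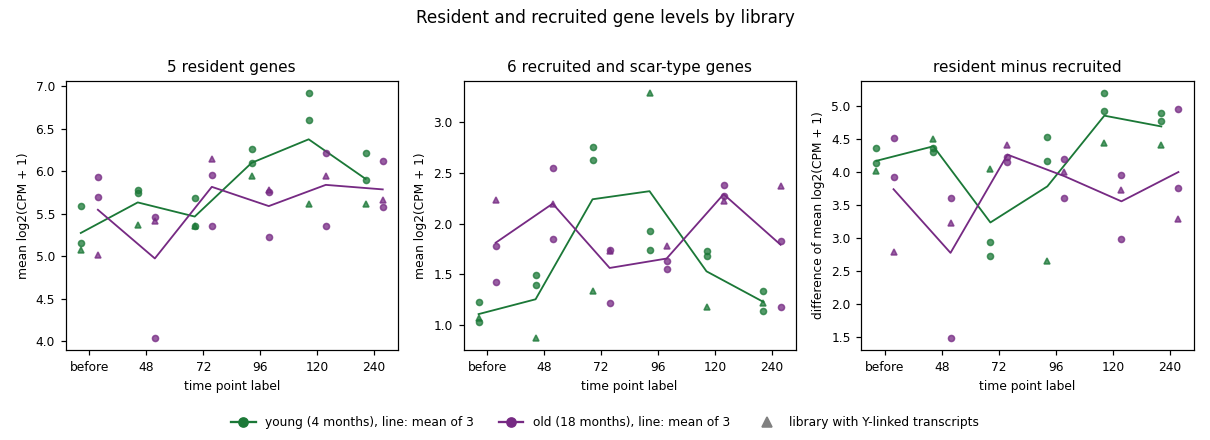
Mean log2(CPM + 1) of the 5 resident genes (left), of the 6 recruited and scar-type genes (middle) and their difference (right) in each library by time point label; lines join the means of 3 replicates, and triangles are the libraries with Y-linked transcripts. The difference is lowest at 72 in young and at 48 in old livers, where old 48 replicate 2 is the lowest point.

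Other genes of the same biology were read from fixed lists. Of 14 macrophage transcription factors, 0 were called in the average over time points, where 5.98% of all genes were called. Of 13 signals of the Kupffer cell niche, 0 were called too (edgeR, with 3 of each at an unadjusted p under 0.05). At 48 in old livers, 6 of the 14 factors were called lower than before, where 12% of all genes were called lower and 12.1% higher. Among the 6 was Cebpa at -1.10 ± 0.35 (edgeR adjusted p = 0.021), and Klf4 was called higher (1.86 ± 0.57, edgeR adjusted p = 0.0193). Cebpa was also lower in young livers at 48 (-1.30 ± 0.35, edgeR adjusted p = 0.00742). Cebpa and Klf4 are expressed by hepatocytes or endothelium too.

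Of 12 chemokine and receptor genes tested, 3 were called in the age average, where 5.98% of all genes were called (3.39% higher in old livers, 2.59% lower). Cxcl1, which draws neutrophils, and Ccl6 were higher in old livers (1.07 ± 0.23 and 0.80 ± 0.18, edgeR adjusted p = 0.00598 and 0.00814), and Ccl24, an eotaxin, was lower (-0.92 ± 0.21, edgeR adjusted p = 0.00594). Of 20 phagocytosis and iron genes, 2 were called, both higher in old, where 3.39% of all genes were called higher. They were Cd36, the fatty acid and lipoprotein receptor (0.97 ± 0.14, edgeR adjusted p = 5.39e-05), and Ctsz, a lysosomal protease (0.36 ± 0.07, edgeR adjusted p = 0.00187). Of 7 cytokine genes tested, 0 were called with edgeR, and 4 had an unadjusted p under 0.05. Hepatocytes also express Cd36 and Cxcl1, so these values do not belong to macrophages alone.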

How the data were processed

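Each of the 36 libraries had a table of raw counts per gene, a whole-number count that the authors deposited without normalization. Per the submitters' processing notes, the tools included STAR 2.7.5b, Trimmomatic 0.39 and featureCounts with GRCm38; annotation, strand setting and filters are not given in the sources used here. Per the labels' protocols, RNA from frozen liver was ribosome-depleted, and young and old livers received different ERCC spike-in mixes, which the tables do not list and which were not used. Without strand, reads of a gene and its antisense partner cannot be told apart.

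Counts were scaled with TMM and tested with edgeR 4.0.16 in R 4.3.3 (robust quasi-likelihood, 1 fit of the 12 groups, filterByExpr with a minimum count of 10, 13436 genes). P-values were adjusted by Benjamini-Hochberg over all genes, with a threshold of 0.05. Total counts of 2328233 to 6034446 limit genes of a few CPM, and counting intervals (95%, exact) cover counting error only. Log2 plots used a pseudocount of 1, and libraries over 50 CPM of Y-linked transcripts were set apart. Replicates are those of the series' design, and no pair of replicates agreed within counting noise (chi-square per degree of freedom of at least 5.09 in 36 pairs). On simulated data, the averaged age test recovered 93% of 2-fold and 98% of 4-fold changes among 13215 genes, with 2.55% false calls. The age test at 48 alone recovered 55% of 2-fold and 90% of 4-fold changes, with 3.97% false calls. Genes with the lowest mean CPM were not among those changed.

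Members and lists were chosen with earlier results of these data known. Genes were named by rule: 11 (Clec4f, Timd4, Vsig4, Cd5l, Marco, Ly6c2, Ccr2, Itgam, S100a8, Gpnmb and Trem2) whatever their values, every member called in a comparison, and at most 3 called genes per other list. Members named only for groups that did not overlap, and other values given to describe them, were chosen after their values were seen. Alternatives were DESeq2 1.42.0, other scalings and filters, a replicate block, Y-linked transcripts as a term or left out, fits of single comparisons, and fits that lacked 1 library at a time. Fits of fewer libraries repeated the filter on low counts, so the set of genes tested changed as well. It held 13682 genes without old 48 replicate 2, against 13436. Calls lost or gained in such fits therefore cannot be put down to the library alone. A fit without robust spread and a block shared by the ages were added after seeing the data. Some genes of the other lists are not reported here.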

Additional observations from a re-analysis of the deposited data

Results flagged for a closer look

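For 3 genes the course over time differed between the ages by the interaction test of the edgeR fit, and each adjusted p was close to the threshold of 0.05. Itgam had an adjusted p of 0.0221, with old libraries above young ones before and below them at 96. Gpnmb had an adjusted p of 0.0344, with its high values in 3 young libraries at 72 and 96. Spp1 had an adjusted p of 0.0398, with high values in the same 3 young libraries and in old 48 replicate 2. The causes were not tested.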

How the results depend on the processing

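Counts of members called are compared here with those of the report. Cd207, Cd163 and Cd9 were called in the age average under all 46 alternatives, and no result reversed. With DESeq2 the counts were 9 in the age average, 1 at 72, 2 at 96, 1 at 120 and 1 at 240 for age, 3 in young at 96, 1 in young at 120, 3 in old at 120, 6 for the interaction, and 1 at 48 and 2 at 96 for the age difference in change. Fitting only the groups compared gave 2 before and 0 at 48 for age (1 of all genes at 48, against 1505), 5, 5, 7, 1 and 1 in young at 48, 72, 96, 120 and 240, and 0 and 5 in old at 48 and 72. Without the libraries with Y-linked transcripts the counts were 1, 1 and 2 for age at 72, 96 and 120, 0 in young at 48, 1 and 3 in old at 96 and 120, 7 for the young time course (13 with all libraries), and 1 for the age difference in change at 120. As a term, Y-linked transcripts gave 1 for age at 96 and 4 in old at 120. With no filter the counts were 1 in young at 48, 1 in old at 96, 1 for the interaction and 8 for the young time course. A minimum count of 20 gave 1 in young at 96 and 2 in old at 120, total-count scaling gave 1 and 2 for the same, and no robust spread gave 1 in young at 96 and 1 for age at 120. The causes of these moves were not tested.

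Leaving out each library gave 5 to 8 calls in the age average, 0 to 1 before, 0 to 8 at 48 (685 to 2194 of all genes), 0 to 1 at 72, 0 to 2 at 96, 0 to 1 at 120 and 0 to 0 at 240. In young livers it gave 0 to 3, 3 to 10, 0 to 2, 0 to 0 and 0 to 0 from 48 to 240. In old livers it gave 5 to 18, 1 to 4, 0 to 3, 0 to 3 and 0 to 0. The interaction gave 0 to 7, the age difference in change 0 to 6 at 48, 0 to 0 at 72, 0 to 1 at 96 and 0 to 0 at 120 and 240, and the time course 6 to 18 in young (9 in old with all libraries, 5 to 15).

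The replicate numbers do not pair the libraries: same-numbered libraries had a mean correlation of 0.0553 (-0.378 to 0.578), and 16 of 36 correlated best with their own number. With the replicate block, nested in age or shared by the ages, 2 genes were called in old livers at 120 (1 without it). Either block also called Timd4 in the age average (adjusted p = 0.0236 and 0.043), Cx3cr1 for age at 48 (0.0474 and 0.0487) and Trem2 in young at 72 (0.0345 and 0.033). The nested block called Mmp12 in the age average and Clec4f and C1qb in old at 48, and the shared block S100a8 in the age average. Either block lost the calls of Ptprc in old at 72 and Itgam in the young time course. The nested block lost Spp1 in young at 72 and in the interaction. The shared block lost C1qa in old at 48 and Ccr2 in the young time course.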
